A study of Homo sapiens with 2 samples.

Results

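The 8 genes described here, TOX3, MAP3K1, LSP1, NEK10, RAD51B, ZNF365, TBX3 and KLF4, are genes by which breast cancer susceptibility loci are commonly named or which lie close to such loci. They were examined for open chromatin in CAMA-1, an estrogen receptor-positive human breast adenocarcinoma cell line. ATAC-seq, which maps chromatin open to a transposase, uses the enzyme Tn5 to insert adapters into DNA that nucleosomes leave exposed, and places with many insertions are called as peaks. There were 2 biological replicates of CAMA-1, untreated and grown as adherent cultures in DMEM with fetal bovine serum, and no other condition. A gene's window was its GENCODE gene body plus 100 kb on either side on the hg38 genome build, 3132 kb over the 8 genes. Peaks of the replicates that shared at least 1 bp were merged, and a region had to hold a peak of both replicates. The windows held 388 of the 215195 regions of the genome. A region within 1 kb of a transcription start site (TSS) of the gene was an own promoter region, and one within 1 kb of a TSS of any other annotated gene was a promoter region of another gene. The remaining regions were intronic or exonic where they overlapped the gene, and flanking otherwise. With 1 condition, there was no comparison between groups of samples, and all values below are descriptions without a test.

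Susceptibility loci found by association studies lie mostly outside protein-coding sequence, and many overlap regulatory DNA such as enhancers, which can act on promoters over long distances. Enhancers in use and active promoters are usually free of nucleosomes and therefore open to Tn5, whereas an open region alone does not tell which gene it acts on. Among the 8 genes, TBX3 and KLF4 encode transcription factors, TOX3 encodes a high-mobility-group box protein, MAP3K1 a kinase at the top of mitogen-activated protein kinase cascades, NEK10 a kinase of the NIMA family, RAD51B a protein of homologous recombination, ZNF365 a zinc finger protein and LSP1 an actin-binding protein known from leukocytes.

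At 5 of the 8 genes the strongest region away from any TSS stood higher, by the mean of the replicates, than the strongest promoter region of the gene itself. The same held for 60.3% of 15842 protein-coding genes with both kinds of region, so the count was near the background. The middle 201 bp of these 5 regions are printed first because much of the description below turns on them. They are given 5′ to 3′ on the plus strand of hg38, with capitals where the letters match one of 10 short motifs that were searched on both strands. The TOX3 sequence is chr16:52598103-52598303, the MAP3K1 sequence chr5:56833755-56833955, the LSP1 sequence chr11:1796535-1796735, the RAD51B sequence chr14:68137834-68138034 and the KLF4 sequence chr9:107422411-107422611.
TOX3: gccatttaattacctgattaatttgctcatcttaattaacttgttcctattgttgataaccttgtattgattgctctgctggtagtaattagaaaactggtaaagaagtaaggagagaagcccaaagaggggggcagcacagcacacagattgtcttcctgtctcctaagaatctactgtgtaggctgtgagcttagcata
MAP3K1: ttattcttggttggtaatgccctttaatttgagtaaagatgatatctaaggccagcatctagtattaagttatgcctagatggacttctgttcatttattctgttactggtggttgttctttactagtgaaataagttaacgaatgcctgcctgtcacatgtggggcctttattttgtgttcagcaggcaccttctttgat
LSP1: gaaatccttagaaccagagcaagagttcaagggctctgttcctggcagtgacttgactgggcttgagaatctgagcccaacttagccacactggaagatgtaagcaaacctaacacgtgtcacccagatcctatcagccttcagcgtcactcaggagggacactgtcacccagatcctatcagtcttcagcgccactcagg
RAD51B: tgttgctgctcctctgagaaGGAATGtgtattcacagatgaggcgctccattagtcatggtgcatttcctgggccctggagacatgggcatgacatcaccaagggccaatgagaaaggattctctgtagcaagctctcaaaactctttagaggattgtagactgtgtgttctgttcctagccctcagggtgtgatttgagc
KLF4: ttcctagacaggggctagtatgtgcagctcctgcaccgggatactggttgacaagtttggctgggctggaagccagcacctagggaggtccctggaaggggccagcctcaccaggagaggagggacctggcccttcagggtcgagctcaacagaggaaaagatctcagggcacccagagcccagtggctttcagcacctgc
The RAD51B sequence held GGAATG, the letters bound by TEAD factors, starting at base 21 of the 201. The other 4 sequences held none of the 10 motifs, which says only that those letters are not in these windows. The 5 sequences held 0 to 3 CpG dinucleotides each, and their GC content ran from 37.8% in MAP3K1 to 60.7% in KLF4.

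Promoter sequences were taken from RefSeq on GRCh38.p14, from 250 bases before to 50 after the start, and 4 of the 8 genes had an entry. The entries of NEK10 (chr3:27369334-27369633, minus strand) and KLF4 (chr9:107489720-107490019, minus strand) lay inside the strongest own promoter region of their gene and are printed in the direction of transcription, again with motif matches in capitals.
NEK10: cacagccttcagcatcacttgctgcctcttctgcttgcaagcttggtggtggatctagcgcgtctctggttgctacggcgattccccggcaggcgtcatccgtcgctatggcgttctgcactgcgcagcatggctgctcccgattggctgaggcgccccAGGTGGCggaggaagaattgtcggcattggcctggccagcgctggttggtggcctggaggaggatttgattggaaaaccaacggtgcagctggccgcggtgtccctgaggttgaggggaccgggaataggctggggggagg
KLF4: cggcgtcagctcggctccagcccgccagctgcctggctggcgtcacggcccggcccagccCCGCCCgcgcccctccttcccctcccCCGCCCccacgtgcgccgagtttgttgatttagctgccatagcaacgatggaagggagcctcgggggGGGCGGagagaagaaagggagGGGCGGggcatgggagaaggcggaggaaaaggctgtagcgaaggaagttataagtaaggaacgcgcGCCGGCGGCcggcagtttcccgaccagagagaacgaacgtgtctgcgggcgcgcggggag
The KLF4 promoter had a GC content of 69.0% and 33 CpG dinucleotides. It matched GGGCGG, the letters bound by SP and KLF factors, 4 times over both strands, and GCCNNNGGC, those of AP-2, at bases 241 to 249. The NEK10 promoter had a GC content of 62.7% and 19 CpG dinucleotides, and it matched AGGNGGC, the core letters of CTCF, at bases 160 to 166. Of 35116 RefSeq promoters of the same length, 45.0% held GGGCGG, 23.2% GCCNNNGGC and 35.9% AGGNGGC. The letters of GGGCGG and AGGNGGC can share bases, but the matches printed here did not. ZNF365 and RAD51B were the other 2 genes with entries, and TOX3, MAP3K1, LSP1 and TBX3 were the 4 without. The ZNF365 entry lay inside the weaker promoter region of its gene. A second NEK10 entry, chr3:27216474-27216773, and both RAD51B entries overlapped no region.

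All 8 genes had an own promoter region in both replicates, against 79.4% of 20033 protein-coding genes. The strength of a peak was its fold enrichment, the authors' ratio of the peak's height to the background of the peak caller. The height itself, the number of reads stacked at the highest base, was recovered from the steps between the deposited folds and is given with an exact Poisson 95% interval. The median height over the genome was 35 reads in either replicate, over a background of 3.35 reads in replicate 1 and 3.52 in replicate 2. The interval covers counting error only, since reads copied by PCR are not independent molecules.

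Both transcription factor genes had open promoters, TBX3 the strongest of all. TBX3, a T-box factor needed for mammary gland development, had the strongest own promoter region, chr12:114683670-114685206 over the start of the gene and the sequence before it, with a fold enrichment of 93.2 in replicate 1 and 90.7 in replicate 2. Its height was 404 reads in replicate 1 and 409 in replicate 2. At KLF4, a Krüppel-like zinc finger factor of epithelial differentiation, the region chr9:107489437-107490581 reached 45.1 and 47.8 fold, with heights of 195 and 215 reads. A neighbouring KLF4 promoter region, chr9:107486642-107489199, lay over the body of this short gene and reached 38.0 and 42.2 fold.

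The 2 kinase genes also had strong promoters. The only own promoter region of NEK10, chr3:27369020-27369747 at exon 1, reached 85.8 fold in replicate 1 and 95.3 in replicate 2, with heights of 372 and 430 reads. At MAP3K1, chr5:56814378-56816393 reached 64.4 and 85.1 fold. Its heights of 279 and 384 reads had intervals that did not overlap, so replicate 2 stood above replicate 1 beyond counting error. A weaker MAP3K1 promoter region at the start of intron 1 had 23.2 and 22.3 fold.

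RAD51B, TOX3, ZNF365 and LSP1 had the weaker promoters. RAD51B reached 36.4 and 38.3 fold at chr14:67819584-67820045, over exon 1, with heights of 157 and 172 reads. At TOX3 the strongest own promoter region, chr16:52548450-52549381, lay wholly upstream of the gene with 31.1 and 26.3 fold, and the region across the TSSs themselves, chr16:52546431-52547924, had only 13.8 and 14.6 fold. ZNF365 reached 21.6 fold in replicate 1 and 34.5 in replicate 2 at chr10:62375074-62375412 in intron 1, and its heights of 93 and 155 reads did not overlap within their intervals. The ZNF365 region at the gene's first base had 14.3 and 16.4 fold. Both ZNF365 promoter regions also lay within 1 kb of TSSs of ENSG00000285837 and ENSG00000288011. Likewise, the strongest promoter regions of TBX3, NEK10 and KLF4 lay within 1 kb of a TSS of TBX3-AS1, ENSG00000287348 and ENSG00000289987, respectively, so the signal at these 4 genes cannot be assigned to the named gene alone.

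LSP1 had the most own promoter regions of the 8 genes. It has 17 annotated TSSs and had 7 own promoter regions, of which the strongest, chr11:1876441-1876731 in intron 1, lay 23.5 kb inside the gene with 21.4 and 19.2 fold. At the 5′ end of the gene the fold enrichment was 12.2 in replicate 1 and 7.74 in replicate 2. The remaining 5 LSP1 promoter regions ran from 4.14 to 15.7 fold over both replicates.

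Ordered by the mean of the replicates, the own promoter folds were 91.9 ± 1.79 (SD, n = 2) for TBX3, 90.6 ± 6.70 for NEK10, 74.8 ± 14.6 for MAP3K1, 46.4 ± 1.88 for KLF4, 37.3 ± 1.34 for RAD51B, 28.7 ± 3.36 for TOX3, 28.1 ± 9.10 for ZNF365 and 20.3 ± 1.53 for LSP1. Of the 7 pairs of neighbours in this order, only MAP3K1 and KLF4 had height intervals that were separate in both replicates. NEK10 and MAP3K1 were separate in replicate 1 alone, and RAD51B and TOX3 as well as ZNF365 and LSP1 in replicate 2 alone. The other 3 pairs, TBX3 and NEK10 among them, overlapped in both replicates. Among 15868 protein-coding genes with an own promoter region and a peak of each replicate itself within 1 kb of the TSS, whose median was 52.6 fold, TBX3 lay at percentile 79.8, NEK10 at 79.0 and MAP3K1 at 69.2, and the other 5 genes lay between percentiles 17.7 and 43.9. Copy number in CAMA-1 scales the heights of a whole locus and was not analysed here, so its part in this order was not tested.

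**Figure D1:**
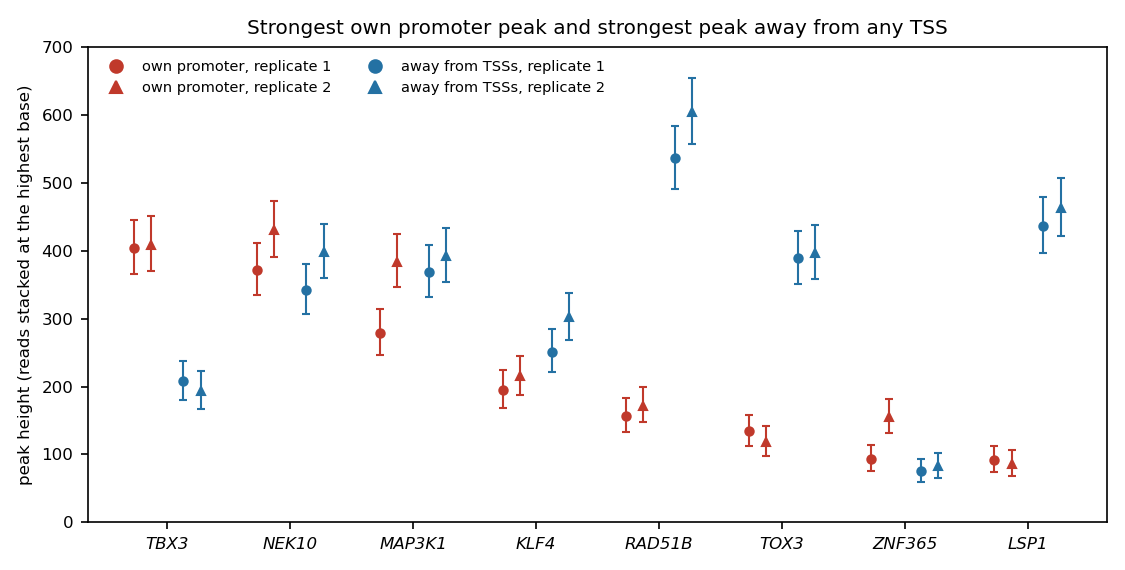
Height of the strongest own promoter peak (red) and of the strongest peak away from any TSS (blue) at each gene, in reads stacked at the highest base, for replicate 1 (circles) and replicate 2 (triangles); bars are exact Poisson 95% intervals. Genes are ordered by promoter fold enrichment from TBX3 to LSP1, and at RAD51B, TOX3 and LSP1 the blue points lie far above the red ones in both replicates.

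Away from TSSs the order of the genes was different. The strongest such region of all 8 windows was in RAD51B, at chr14:68137620-68138248 in intron 7, 318 kb from the TSS, with a fold enrichment of 123.6 in replicate 1 and 133.8 in replicate 2 and heights of 536 and 604 reads. LSP1, last by promoter, had the second strongest, the flanking region chr11:1796048-1797222 at 56.4 kb upstream, with 100.6 and 102.6 fold. TOX3 followed with chr16:52597636-52598771 at 51.1 kb upstream, with 89.7 and 88.0 fold. MAP3K1 had 85.1 and 86.9 fold at chr5:56833316-56834394, 18.3 kb into the gene in intron 1. NEK10 had 78.9 and 88.2 fold at chr3:27316908-27317573 in intron 6, 52.1 kb into the gene. At KLF4 the strongest region, chr9:107422053-107422970, lay 67.3 kb downstream with 58.0 and 67.0 fold. TBX3 had 48.1 and 42.9 fold at chr12:114668015-114669252, just past the 3′ end of the gene. ZNF365 came last with 17.5 and 18.6 fold at chr10:62554684-62554995. Against all regions of the genome by mean fold, these 8 regions lay at percentiles from 69.7 (ZNF365) to 99.2 (RAD51B), each being the highest of 11 to 154 candidates in its window.

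The ratio of this region's height to that of the strongest own promoter region is a comparison within a locus. It was 4.74 in replicate 1 and 5.38 in replicate 2 for LSP1, 3.41 and 3.51 for RAD51B, and 2.90 and 3.36 for TOX3, and the height intervals were separate in both replicates at these 3 genes. TBX3 was the reverse, with ratios of 0.515 and 0.472 and separate intervals in both replicates, so that its promoter dominated its window. At NEK10 the ratios of 0.919 and 0.926 left the intervals overlapping in both replicates. MAP3K1 had ratios of 1.32 and 1.02, separate in replicate 1 alone. KLF4 had 1.29 and 1.40, and ZNF365 0.806 and 0.535, separate in replicate 2 alone. Over whole windows, an own promoter region was the strongest region at 3 of the 8 genes (NEK10, ZNF365 and TBX3), against 18.0% of 19841 windows of protein-coding genes with a region. At TOX3, LSP1, RAD51B and KLF4 the strongest region was away from any TSS, and at MAP3K1 it was the promoter of the neighbouring SETD9 gene.

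**Figure D2:**
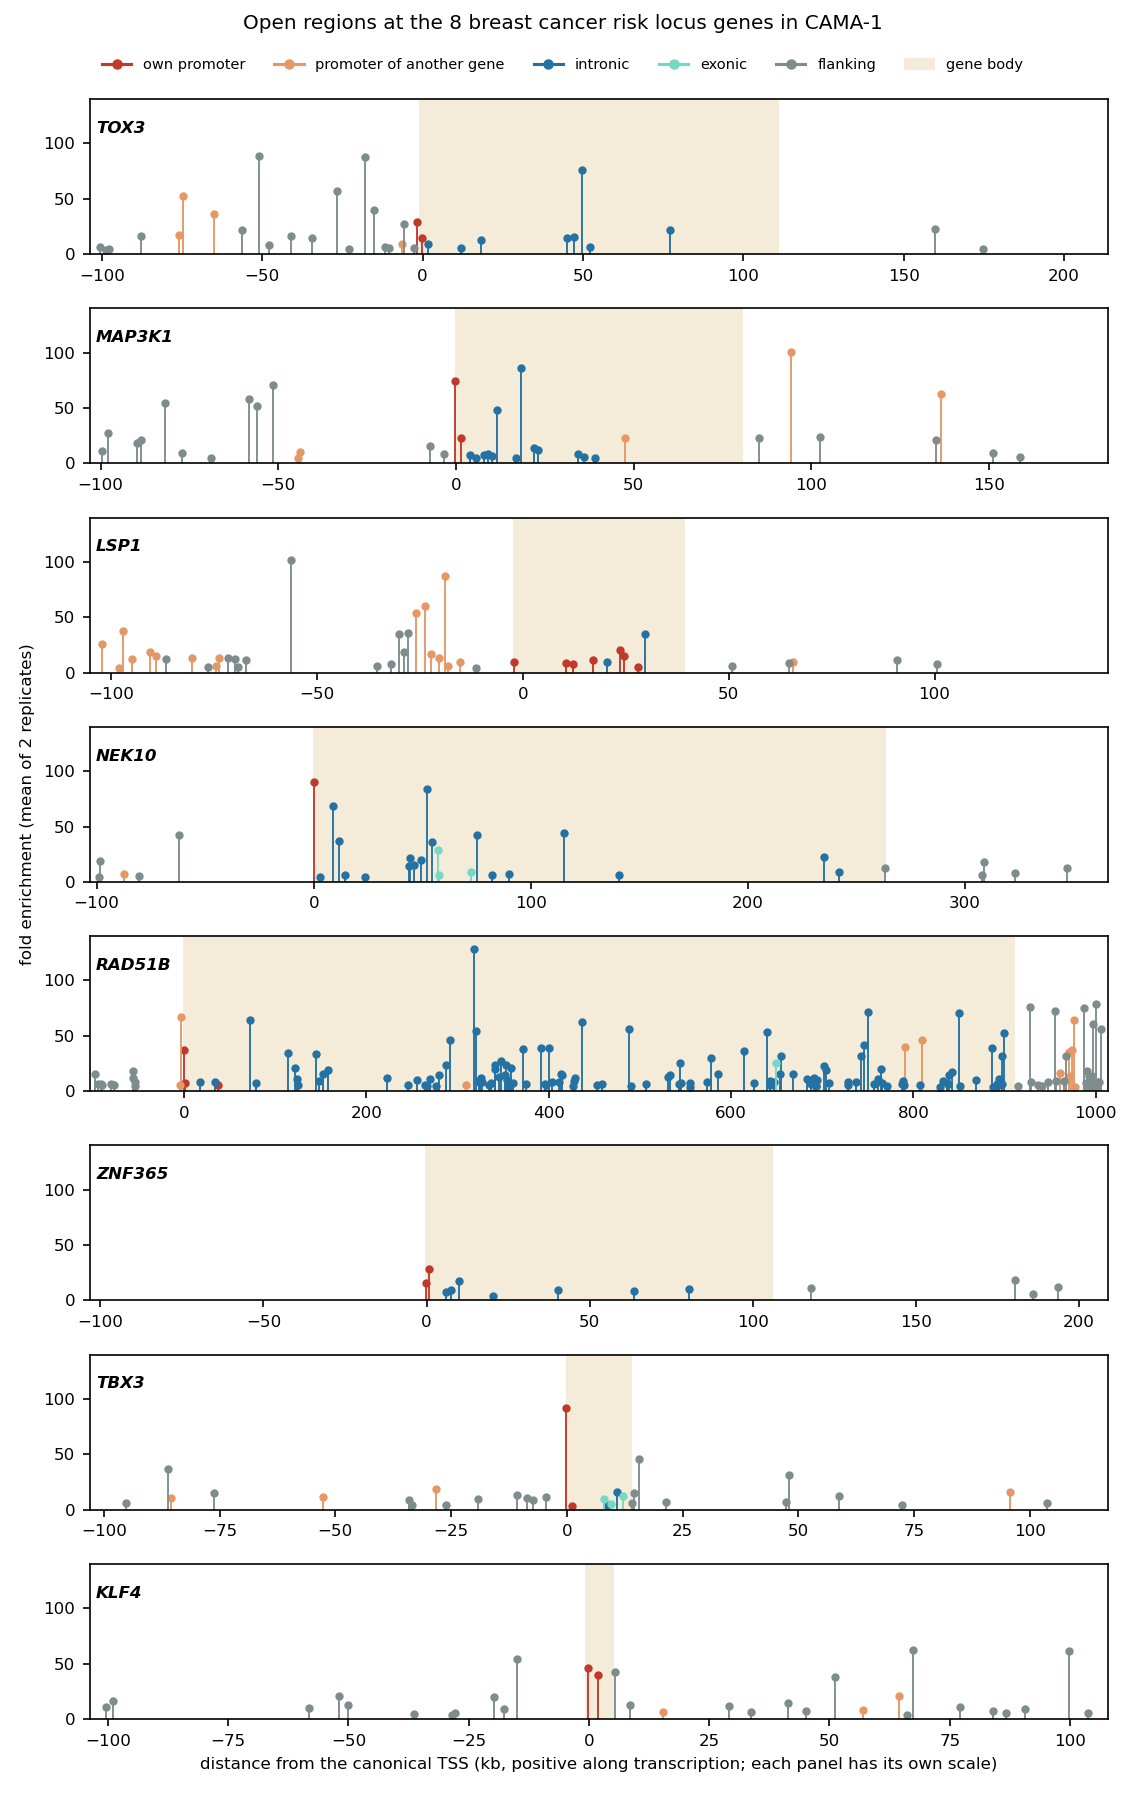
Every region in the 8 windows by its distance in kb from the gene's canonical TSS (x axis, positive in the direction of transcription, with a scale of its own in each panel) and its fold enrichment averaged over the 2 replicates (y axis); colours give the position class and shading the gene body. TOX3 regions crowd upstream, MAP3K1 regions in the first part of the gene, RAD51B regions over the whole gene and past its 3′ end, and ZNF365 is nearly empty.

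The 388 regions comprised 21 own promoter regions, 45 promoter regions of other genes, 169 intronic, 7 exonic and 146 flanking regions. Regions away from any TSS made up 83.0%, and promoter regions of either kind made up 17.0% against 19.9% of all regions. Median fold enrichment was 14.3 in replicate 1 and 16.4 in replicate 2 for own promoter regions, and 10.6 and 9.95 for regions away from TSSs, ratios of 1.35 and 1.64 (mean 1.496 ± 0.210, SD, n = 2). Among the 50000 strongest peaks of each replicate the ratio was 0.978, so its direction turned. Regions away from TSSs over the whole genome had medians of 8.97 and 9.29. Regions of at least 20 fold in both replicates numbered 102, or 26.3% of the regions of the windows against 26.0% genome-wide, and those of at least 50 fold numbered 38, or 9.79% against 8.58%. Thus the strong regions were about as frequent in the 8 windows as elsewhere. Of the 38 strongest, 28 lay away from any TSS, beside 322 of all 388 regions of the windows. The genome-wide share at this limit is not given here.

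**Figure D3:**
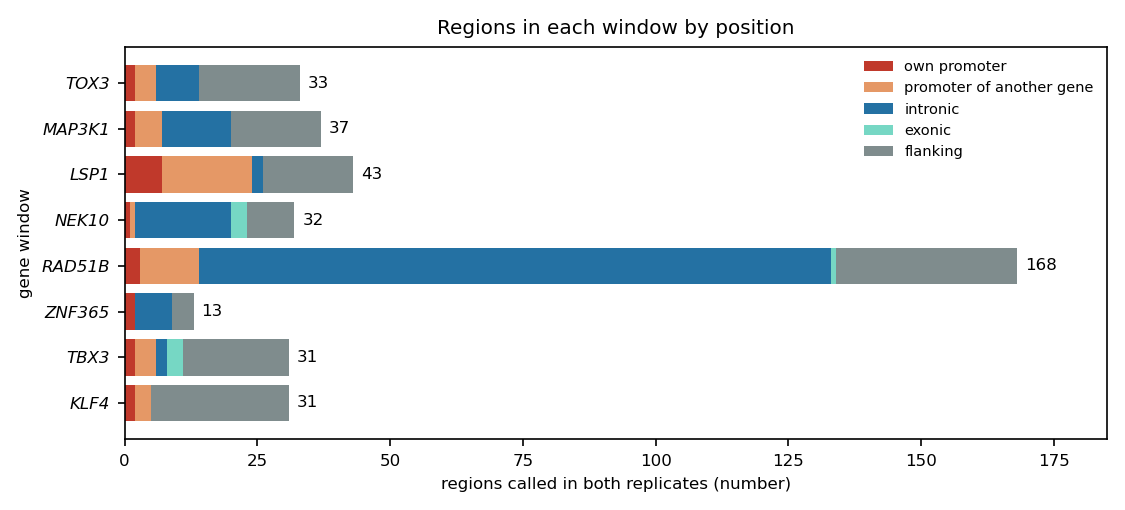
Number of regions called in both replicates in each gene's window (x axis), stacked by position class, with the total at the end of each bar. RAD51B holds 168 of the 388 regions and ZNF365 only 13, and KLF4 has neither intronic nor exonic regions.

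Flanking regions of TOX3 lay mostly upstream. Of 19, 17 were upstream and 2 downstream, and 16 lay in the body of CASC16, a long noncoding RNA gene next to it. The 3 strongest flanking regions were all in CASC16. Beside the one already given, chr16:52564303-52565677 at 17.8 kb upstream had 84.2 and 91.8 fold and chr16:52573560-52574291 at 26.8 kb upstream had 60.7 and 53.1 fold. Inside TOX3 all 8 intronic regions were in intron 1, which is 78.1 kb long, and the strongest, chr16:52497107-52497752, had 73.2 and 78.3 fold.

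All 13 regions of MAP3K1 classed as intronic were in intron 1, a stretch of 40.5 kb in this gene of 20 exons. A region in intron 3, chr5:56862906-56863293 with 21.4 and 24.3 fold, was classed as a promoter region of ENSG00000237705. Upstream, MAP3K1 had 12 flanking regions, among them chr5:56763548-56764584 at 51.5 kb with 65.8 and 75.2 fold and chr5:56756933-56757491 at 58.3 kb with 59.6 and 56.2 fold. The SETD9 and MIER3 genes have TSSs in the downstream part of the window. The SETD9 promoter had 98.2 and 102.2 fold. The promoter region of MIER3, which encodes a putative transcriptional repressor, had 56.4 and 68.8 fold and lay inside that gene's annotated body.

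LSP1 lies in a gene-rich stretch, and 17 of the 43 regions of its window were promoter regions of other genes. The strongest promoter region of SYT8, a synaptotagmin gene, had 90.0 and 85.1 fold and lay inside the gene. The strongest of CTSD, which encodes the lysosomal protease cathepsin D, had 39.1 and 35.8 fold and also lay inside its gene. Both stood above the strongest LSP1 promoter. Over the 5′ end of CTSD, chr11:1763434-1764616 had 14.3 and 15.3 fold, below the strongest LSP1 promoter. The strongest CTSD region was also the strongest promoter region of the overlapping gene ENSG00000250644. TNNI2 and TNNT3, troponin genes of fast skeletal muscle, had weak promoter regions of 8.97 and 10.6 fold and of 10.4 and 9.29 fold. PRR33 and MRPL23 had none in both replicates. Only 2 regions were intronic in LSP1, the stronger one in intron 3 with 34.1 and 35.2 fold.

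NEK10 carried 18 intronic and 3 exonic regions, spread over 12 introns and 1 exon of its canonical transcript of 36 exons. In intron 1, chr3:27360165-27361035 had 71.8 and 65.5 fold, at 8.78 kb from the TSS. SLC4A7, a bicarbonate transporter gene by which the same susceptibility locus is also named, lies upstream and has TSSs inside and outside the window. Its strongest promoter region had 75.7 and 88.5 fold, but lay outside the window, and the SLC4A7 promoter region inside it had 6.67 and 7.96 fold. The strongest flanking region, chr3:27431125-27431673, with 41.0 and 44.2 fold, lay in the body of SLC4A7. All 33 peaks of replicate 1 in the NEK10 window had a counterpart in replicate 2.

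RAD51B is the longest of the 8 genes, at 910 kb, and had 119 intronic regions. Of its 120 intronic and exonic regions, 54 were in intron 7 of the canonical transcript, which is 405 kb long, 13 in intron 8, 6 in intron 9, 3 in intron 10 and 2 in intron 4, and 42 lay past the end of that transcript, in longer isoforms. The 100 kb downstream held 24 flanking regions against 10 upstream. In that downstream flank lies ZFP36L1, which encodes an RNA-binding protein that promotes mRNA decay, with a promoter of 59.4 and 69.0 fold. Near it stood chr14:68819112-68819967 with 78.5 and 79.2 fold, chr14:68746994-68747948 with 74.8 and 77.4 fold, and chr14:68806561-68807798 with 74.1 and 75.4 fold, all above the RAD51B promoter. On the other side, ZFYVE26 has a promoter of 68.1 and 66.1 fold only 3.05 kb from the canonical RAD51B TSS, and RDH12, a retinol dehydrogenase gene, had no promoter region in both replicates.

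ZNF365 had the emptiest window, with 13 regions, none of them upstream of the gene and only 1 of at least 20 fold in both replicates. Its strongest intronic region, chr10:62384108-62384419 in intron 2, had 20.9 fold in replicate 1 and 13.3 in replicate 2. TBX3 had 20 flanking regions, 11 upstream and 9 downstream, and 4 of its 31 regions reached 20 fold in both replicates. The strongest intronic region of TBX3, chr12:114672898-114673888, had 17.0 and 15.3 fold. KLF4 had no region inside the gene away from its TSSs and 26 flanking ones, among which chr9:107504113-107505359 at 15.0 kb upstream had 56.8 and 52.4 fold. At both genes a flanking region stood just past the 3′ end, chr9:107484171-107484473 at KLF4 with 41.6 and 43.1 fold and the strongest flanking region of TBX3 given above.

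Because gene lengths differ, the number of regions was also taken per 100 kb of window. It was 17.8 for LSP1, 15.1 for RAD51B and KLF4, 14.5 for TBX3, 13.2 for MAP3K1, 10.6 for TOX3, 6.91 for NEK10 and 4.25 for ZNF365. The same windows of all protein-coding genes had a median of 11.3 and an interquartile range of 6.18 to 18.5. LSP1, the densest, lay at percentile 73.0 and ZNF365, the sparsest, at 14.8, with 5 of the 8 above the median and ZNF365 alone below the interquartile range. The order depended on the flank. With flanks of 50 kb, TBX3 (20.2) stood above LSP1 (17.7), and with 250 kb, KLF4 (15.6) and RAD51B (15.4) stood above LSP1 (12.7) and NEK10 (5.24) fell below ZNF365 (5.44).

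**Figure D4:**
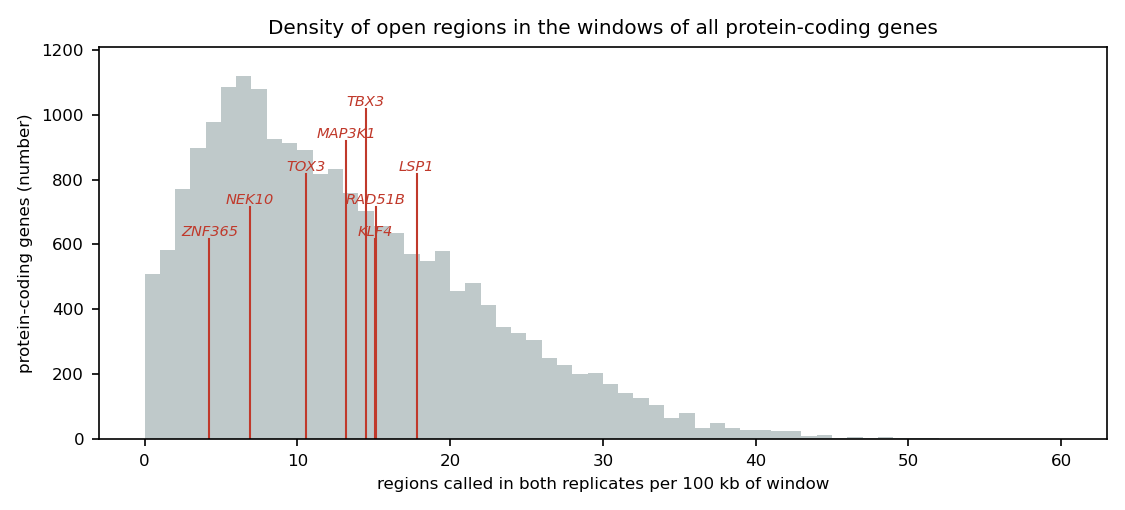
Number of protein-coding genes (y axis) by the density of regions called in both replicates in their windows of gene body and 100 kb flanks (x axis, regions per 100 kb); red lines mark the 8 genes. All 8 lie between 4.25 (ZNF365) and 17.8 (LSP1).

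The replicates were close in these windows. Of 434 peaks of replicate 1, 401 (92.4%, 95% Wilson interval 89.5% to 94.5%) overlapped a peak of replicate 2, against 90.2% over the genome, and of 464 peaks of replicate 2, 402 (86.6%, 83.2% to 89.4%) overlapped a peak of replicate 1, against 84.7%. The 33 and 62 peaks without a counterpart were weak, with median folds of 4.14 and 4.20 and none above 6.67. Fold enrichment differed by less than 1.5-fold between replicates in 370 regions (95.4%). Heights with separate intervals were found in 6 of the 388 regions, against 0.760% of all regions. Replicate 2 was higher in 4 of them, the promoters of MAP3K1 and ZNF365, a flanking region of MAP3K1 with 43.7 and 60.6 fold and a flanking region of KLF4, chr9:107389542-107390231, with 49.5 and 73.2 fold. Replicate 1 was higher in the intron 2 region of ZNF365 and in an intronic region of RAD51B with 28.5 and 19.5 fold.

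In the 322 regions away from TSSs, 301 bp around each midpoint were searched for motifs on both strands. GATA letters (AGATAA) were found in 19.9% of them (95% Wilson interval 15.9% to 24.6%), against 15.7% of all 172293 such regions. AP-2 letters were found in 9.94% (7.13% to 13.7%) against 13.6%. FOX letters (TGTTTAC) occurred in 7.14% against 8.14% of all. The same letters in reverse order (CATTTGT) occurred in 6.83% against 6.24% of all. Letters of AP-1 (TGANTCA) occurred in 14.9% against 14.6%, TEAD (GGAATG) in 23.3% against 20.1%, CTCF in 23.9% against 25.3%, SP and KLF factors in 6.52% against 7.18%, grainyhead factors (AACCNGTT) in 4.35% against 3.92% and ETS factors (CCGGAAG) in 1.86% against 1.33%. The palindromic estrogen response element (both conserved arms with any letters between them) was in 0 of 322 regions, for which the interval reaches 1.18%, and in 0.101% of all. Motif shares of the windows were thus near those of the genome, and the interval of the GATA share alone left out the genome's value. Regions are not replicates, and the intervals cover counting error only.

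**Figure D5:**
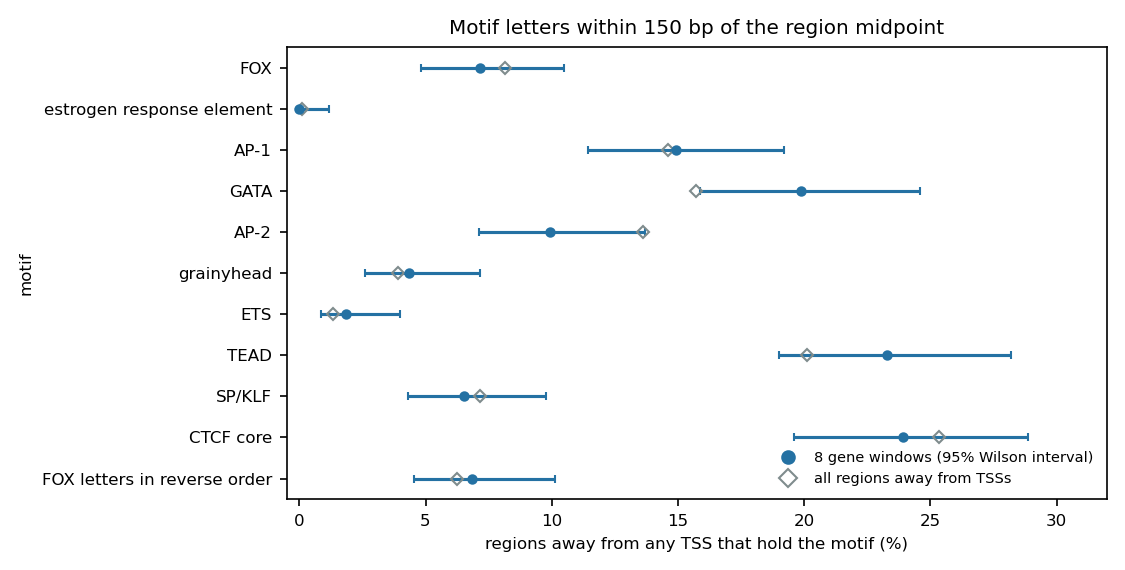
Share of regions away from any TSS that hold the letters of each motif within 150 bp of the midpoint (x axis, %), for the 322 regions of the 8 windows (blue, with 95% Wilson intervals) and for all such regions of the genome (grey diamonds). The GATA share of 19.9% lies above the genome's 15.7%, and the other grey diamonds lie within the blue intervals.

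Motif counts varied among the windows, but most were small, and differences between windows were not tested. SP and KLF letters were found in 6 of 25 such regions of TBX3, 5 of 19 of LSP1 and 10 of 154 of RAD51B. In those of the other 5 genes they were found in none. CTCF letters were found in 9 of 25 regions of TBX3 and 0 of 11 of ZNF365. GATA letters were found in 33 of 154 regions of RAD51B, 9 of 30 of NEK10, 7 of 30 of MAP3K1 and 6 of 27 of TOX3. They were found in 5 of 26 of KLF4, 2 of 19 of LSP1, 1 of 25 of TBX3 and 1 of 11 of ZNF365. AP-1 letters were found in 7 of 30 regions of MAP3K1 and of NEK10 and in none of 26 of KLF4. Median GC content was 46.7% in the regions away from TSSs and 59.5% in the promoter regions of the windows, against 47.8% and 56.5% over the genome.

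Promoters of 28 other genes named for breast cancer susceptibility loci, a list drawn from general knowledge, were read beside these values. The list includes SLC4A7, by which the NEK10 locus is also named. STXBP4 and COX11 had the same folds, 61.7 and 58.4, so the 28 values are not all separate. All 28 genes had a promoter region in both replicates, against 79.4% of 20033 protein-coding genes. Their mean folds ran from 4.06 at TERT to 257.8 at CCND1, with a median of 68.4. The median was 52.6 over 15868 protein-coding genes with an own promoter region. The 3 strongest were CCND1, which encodes cyclin D1, at 257.8 fold, FTO, an RNA demethylase gene, at 155.2 fold and MRTFA, a coactivator of serum response factor, at 153.1 fold. Each of these 3 stood above every one of the 8 genes. So did CASP8, ITPR1, DNAJC1, FGFR2 and PAX9, at 94.5 to 111.2 fold. Copy number scales heights between loci and was not analysed here. The identity of the cells was checked on marker promoters. All 8 luminal epithelial markers (ESR1, GATA3, FOXA1, KRT8, KRT18, KRT19, EPCAM and CDH1) had a promoter region, at 31.9 to 143.4 fold. So had 79.4% of all protein-coding genes. The blood markers PTPRC, CD3E and SPI1 had none. The basal and mesenchymal markers KRT5, KRT14 and VIM also had one, at 10.3, 27.0 and 53.5 fold. VIM stood above ESR1 at 31.9 and GATA3 at 49.1 fold. The presence of a promoter region therefore did not separate the luminal markers from the basal and mesenchymal ones.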

How the data were processed

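ATAC-seq peak lists of 2 biological replicates of CAMA-1 were analysed. The authors trimmed reads with Trim Galore 0.6.5, aligned them with Bowtie2 2.3.5.1 and called peaks in each replicate with MACS2 2.2.6 (hg38). Settings of the peak caller and handling of duplicate reads were not given in the sources used here. The deposited lists hold 245736 and 259745 peaks with a score, a fold enrichment (the authors' ratio of peak to background), and the p-value and q-value as −log10. They hold no read totals, and the library totals given by the study were not used here. Depth bears on which weak peaks were called. The score equalled 10 times the −log10 q-value, truncated, in 100% of peaks. Each fold was taken as (height + 1) / (background + 1), and every deposited fold lay within 8.13e-05 steps of a whole height. The lowest −log10 q-value was 2.24 in replicate 1 and 2.07 in replicate 2.

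Genes, exons and TSSs came from GENCODE release 44, and the canonical transcript set distances, which run to region midpoints since the lists used give no summits. A region's value in a replicate was its strongest peak. Both replicates come from 1 cell line, so the spread between them is that of separate cultures of the same line. Motifs were searched over 301 bp and promoters taken from RefSeq. All 8 genes were named, with the coding genes that have a TSS in a window and the strongest region per class and gene. Of the other susceptibility genes, the 3 strongest were named, and some more to qualify the comparison. The result of 1 blood marker on the marker list is not reported here. Members and lists were chosen with earlier results of these data known. Classing was checked on simulated peaks, where 452 of 452 regions were recovered. The alternatives were a −log10 q-value of at least 10, the 50000 strongest peaks, a reciprocal overlap of 50%, TSS distances of 100 bp and 3 kb, flanks of 50 and 250 kb, TSSs of protein-coding genes only, and each replicate alone. Scripts ran in Python 3.11.15 with scipy 1.17.1, numpy 2.4.6 and, for plots, matplotlib 3.10.9.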

Additional observations from a re-analysis of the deposited data

How the results depend on the processing

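Of 102 values recomputed under an alternative, 71 moved by less than the spread between replicates (counts, by less than 1.5 times). Of the other 31, the 50000 strongest peaks of each replicate gave 83 regions (21 promoter, 33 gene-body and 29 flanking). This setting found 95.5% of replicate 2 peaks again and brought the ratio of own promoter to other regions down to 0.978, below 1. It left 6 of the 8 genes with an own promoter region, a value counted among the 71. The share of all protein-coding genes at this setting is not given here. A −log10 q-value of at least 10 raised the share of replicate 2 peaks found again to 91.0%. A reciprocal overlap of 50% lowered the shares to 86.9% and 81.2% and raised the ratio to 1.72. At 100 bp from the TSS there were 37 promoter regions and the ratio was 1.96, and at 3 kb there were 110 promoter regions. Mean promoter heights fell at 100 bp from 126 to 62 reads at TOX3 and from 124 to 67 at ZNF365, and rose at 3 kb from 89 to 152.5 at LSP1 and from 164.5 to 296.5 at RAD51B, where the ZFYVE26 promoter lies within reach. Flanks of 50 kb gave 41 promoter and 66 flanking regions, with densities per 100 kb of 13.5 at RAD51B, 4.85 at ZNF365 and 20.2 at TBX3. Flanks of 250 kb gave 609 regions, 334 of them flanking, with densities of 8.34 at TOX3, 12.6 at MAP3K1, 12.7 at LSP1, 5.24 at NEK10, 5.44 at ZNF365 and 9.15 at TBX3. With replicate 2 alone the ratio fell to 1.22. With replicate 1 alone it was 1.55, which is counted among the 71. No paired analysis was possible because the 2 replicates form 1 condition.

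Library depth limits which weak regions appear in both lists, and copy number, which scales heights between loci, was not analysed here. A peak within 1 kb of a TSS shared by several genes cannot be assigned to either of them.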

Other observations

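The strongest LSP1 region away from TSSs holds a tandem repeat. An exact run of 38 bp starting at chr11:1796680 recurs 92 bp further on, and reads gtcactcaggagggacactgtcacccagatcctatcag. The first copy lies in the LSP1 sequence printed in the report. In the corresponding regions of the other 7 genes no exact run longer than 11 bp occurred again without overlap. How reads from the copies were placed by the aligner was not tested.

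The flanks also hold other genes without a protein product. Of the 26 flanking regions of KLF4, 7 lay in LINC01509, including the strongest, and 9 of the 20 of TBX3 lay in TBX3-AS1. Of the 4 flanking regions of ZNF365, 3 lay in LINC02929. All 4 also lay in ENSG00000285837, which is among the coding genes with a TSS in the window.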
